A study of Homo sapiens with 2 samples.

Results

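NPPA-high and NPPA-negative cardiomyocytes were 804 and 1372 of 4336 cardiomyocytes, out of 14829 cell barcodes in 1 culture. The culture was HES2, a human embryonic stem cell line, carried through a differentiation labelled SANLPC, for sinoatrial node-like pacemaker cells. The title names CD34 as the marker under study, and the same cells were read in a gene expression library and a library of an antibody tag against CD34, TotalSeq A0054. No genotype or treatment sets cells apart, and the sides compared were drawn from what was measured in them. Cardiomyocytes were taken as barcodes with at least 1000 genes, at most 25% mitochondrial UMIs (unique molecular identifiers, 1 per captured RNA molecule), 8000 to 30000 RNA UMIs, TNNT2 at 2000 CPM or more (UMIs of the gene per 1000000 UMIs), and at most 4 UMIs over the epithelial genes VTCN1, GATA3, CLDN4 and WNT6. A cell with 10 or more NPPA UMIs was called NPPA-high and a cell with 0 was called NPPA-negative. The other 2160 cells held 1 to 9 NPPA UMIs.

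NPPA encodes the precursor of atrial natriuretic peptide, a hormone that heart muscle stores in granules and releases when stretched. In the developing heart NPPA marks the chamber, or working, myocardium, where NKX2-5, GATA4 and TBX5 activate it. The sinoatrial node holds it low through the repressors TBX2 and TBX3, and relies on SHOX2, ISL1 and HCN4 for its identity and its rhythm. The comparison therefore asks which pacemaker and which working genes go with NPPA among cells made by a pacemaker protocol.

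The sequence just before the NPPA start is shown because its known activators and repressors are described below. It is the RefSeq sequence of GRCh38.p14, chr1:11847784-11848033, minus strand, in front of the gene at chromosome 1, 11845709 to 11847783. Capitals mark matches on either strand to GATAA, the GATA type motif, and to AAGTG, the NKX2-5 core.
NPPA: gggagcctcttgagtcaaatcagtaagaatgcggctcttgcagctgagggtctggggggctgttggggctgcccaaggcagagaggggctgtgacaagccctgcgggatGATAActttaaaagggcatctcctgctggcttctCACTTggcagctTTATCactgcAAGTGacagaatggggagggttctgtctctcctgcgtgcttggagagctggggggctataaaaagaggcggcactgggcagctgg
GATAA matched at -141 to -137 on the gene's strand and at -95 to -91 on the other, counted back from the start. AAGTG matched at -107 to -103 on the other strand and at -85 to -81 on the gene's strand. TNAAGTG, a longer NKX2-5 type motif that contains AAGTG, had no match in these 250 bases, and neither had the T-box motif GGTGTGA or GGTGT, the shorter motif within it. AAGTG was searched after TNAAGTG had given no match. Of 35116 promoter windows, 20.4% held GATAA, 37.6% AAGTG, 8.73% TNAAGTG, 2.76% GGTGTGA and 32.2% GGTGT.

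NPPA was spread very unevenly over the cardiomyocytes. Of 35080 NPPA UMIs, 79.8% were in the 804 NPPA-high cells, and 218 cells held 50% of them. In NPPA-high cells the median was 20 NPPA UMIs, with quartiles of 14 and 36 and a highest cell at 620. The limit cut through a continuous range, with 77 cells at 9 UMIs just outside it and 58 cells at 10 just inside, while 669 cells were at 1 UMI just above the NPPA-negative side. These values chose the sides and are a description. In 4662 TNNT2-low cells, within the gene, mitochondrial and depth limits but under 2000 CPM of TNNT2 and taken as the background, 17.9% held an NPPA UMI at a median depth of 17738 UMIs and 0.236% held 10 or more. After every cell was thinned to 8000 UMIs, 9.27% of them held one.

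**Figure D1:**
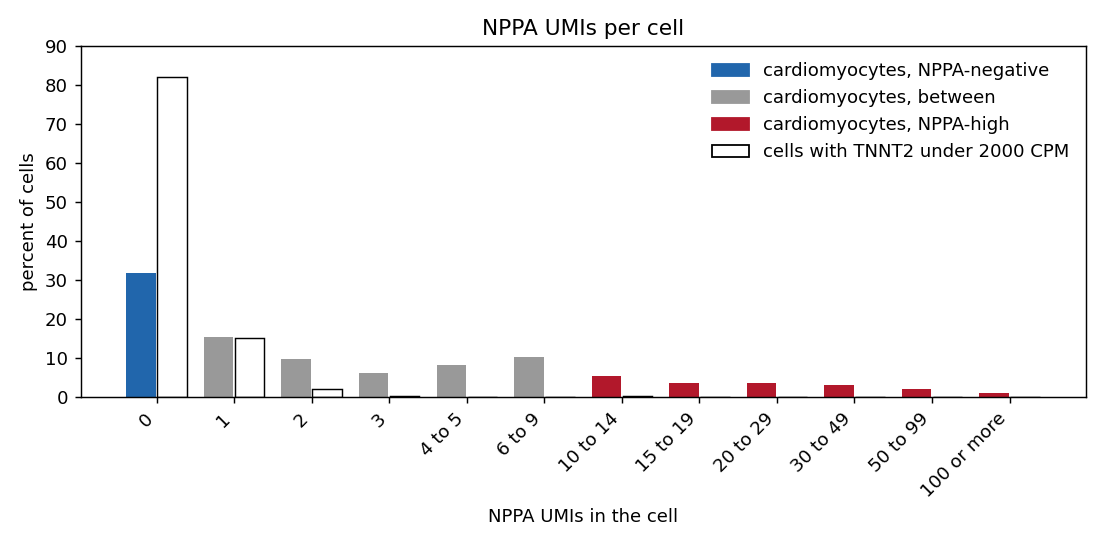
NPPA UMIs per cell (horizontal axis) and the percent of cells at each level (vertical axis), for cardiomyocytes (filled bars, coloured by side) and for cells with TNNT2 under 2000 CPM (open bars). Cardiomyocytes run from 0 to 620 UMIs without a gap at 10, and 17.9% of TNNT2-low cells held any.

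The sides differed in more than NPPA. The median depth was 17171 UMIs in NPPA-high and 15955.5 in NPPA-negative cells, and the median mitochondrial share was 13.0% against 11.7%. The cardiac troponin T gene TNNT2 was well above its limit on both sides, at medians of 8466.81 and 5948.79 CPM. Endothelial, blood and neural lists had no member at the 10 CPM floor, and PECAM1, CDH5 and PTPRC were at 0 UMIs on both sides. Called doublets were 2.24% and 2.48%, and cells in cycle, with 5 or more UMIs over the proliferation genes, were 15.7% and 17.2%. The part of these differences in the results below was not tested. Each side is 1 sample from 1 culture, so no difference has a replicate check. Intervals of levels and ratios are 95% ones for counting error alone. Those of shares are 95% binomial ones that take the cells of the 1 culture as independent draws.

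More genes were lower than higher in NPPA-high cells. Among 8730 genes at 10 CPM or more over all cardiomyocytes, 266 (3.05%) were at least 25% above their NPPA-negative level and are called higher, and 782 (8.96%) were at least 20% below it and are called lower. Genes within these limits are called between. Of 3119 genes at 50 CPM or more, from which the most different ones are named, 2.85% were higher and 6% lower. Higher genes were 25.4% of the called genes, and 36.6% when ratios were centred on the median gene. The median log2 ratio of all measured genes was -0.05, with quartiles of -0.16 and 0.05, against which the medians of the gene lists below are read.

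The genes that stood highest were those of muscle energy supply and contraction. MB, the oxygen store myoglobin, was at 617 CPM in NPPA-high and 234 CPM in NPPA-negative cells, a ratio of 2.63 (2.54 to 2.72). The per-cell quartiles overlapped, from 130 to 712 CPM around a median of 324 against 0 to 285 around 94.4. CKM, the muscle creatine kinase, was at 1525 against 650 CPM (ratio 2.35), and here the NPPA-negative upper quartile of 996 CPM lay below the NPPA-high median of 1405. The light chain gene MYL3 was at 627 against 294 CPM, a ratio of 2.13 (2.07 to 2.20), with a median of 108 CPM per cell against 0. MYL3 came to 1.12 when cells were compared within clusters of similar cells, and so was no longer called higher.

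Behind these came genes of several other roles. HAMP, the iron hormone hepcidin, was at 116 against 59.9 CPM, and PAM, which amidates peptides and is a main membrane protein of atrial granules, was at 649 against 339 CPM. NMRK2, a nicotinamide riboside kinase of muscle, had a ratio of 1.88, and SFRP5, a secreted WNT inhibitor of the inflow tract, a ratio of 1.85. The long noncoding RNA LINC00881 (1.79), TP53I11 (1.73), the splicing factor RBFOX1 (1.71), the myosin binding protein MYBPHL (1.69), the retinoic acid synthesis enzyme ALDH1A1 (1.67), C1orf105 (1.67), EMP2 (1.66) and the calcium channel subunit CACNA2D2 (1.66) completed the 15 highest. Of these 15 genes, 12 kept their call in all 13 alternatives. LINC00881 came to 1.10 when cells with an NKX2-5 UMI were left out, and C1orf105 to 1.18 within clusters.

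The 15 lowest genes were led by matrix and cytoskeletal genes. MGP, a matrix inhibitor of calcification, was at 31.3 CPM in NPPA-high and 228 CPM in NPPA-negative cells, a ratio of 0.137 (0.124 to 0.151). TMSB4X, the actin-binding peptide thymosin beta, was at 178 against 757 CPM, with per-cell upper quartiles of 216 and 910. The collagens COL1A2 (0.232), COL1A1 (0.255), COL3A1 (0.399) and COL6A2 (0.428), the proteoglycan VCAN (0.412) and CCDC80 (0.409) were among them. The protease ADAMTS19 was at 41.3 against 139 CPM, the protease inhibitor A2M at 148 against 407 CPM, and GATM, which makes the creatine precursor, at a ratio of 0.383. PCDH7 (0.404), PRSS23 (0.405), AARD (0.420) and the potassium channel subunit KCNG1 (0.441) filled the list. Per cell, the MGP median was 0 CPM on both sides, with an upper quartile of 56.9 CPM in NPPA-negative cells, so a minority of cells carried its sum. COL1A2, COL1A1, GATM, PCDH7, AARD and KCNG1 also had medians of 0 on both sides. The other genes of the 15 had a higher median in NPPA-negative cells. All 15 kept their call in the 13 alternatives.

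These lowest genes include fibroblast markers. Of 9 fibroblast markers, 7 were measured, 6 were lower, and the receptor PDGFRA at 51.0 against 42.1 CPM was between. Summed over the list the level was 277 CPM in NPPA-high and 726 CPM in NPPA-negative cells, and no defining member was at 0. Within clusters COL1A1 was still at a ratio of 0.472 and MGP at 0.315. Of 6 smooth muscle genes, ACTA2 (0.620), TAGLN (0.513) and RGS5 were lower and MYH11 was higher at 863 against 586 CPM. The part of fibroblast-like RNA in the matrix result was not tested beyond these values.

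Pacemaker genes stood close to equal on the 2 sides. Of 17 listed, 16 were measured, of which 3 were higher and 2 lower. Their median log2 ratio was -0.07, beside -0.05 for all genes, and 11 were between. All 4 transcription factors were between. SHOX2, which represses the working program in the node, was at 502 against 575 CPM, a ratio of 0.872 (0.847 to 0.897). ISL1, a factor of the venous pole, was at 62.0 against 70.0 CPM, and TBX18, needed to form the node's head, at 87.9 against 86.5 CPM. HCN4, the main pacemaker channel, was at 102 against 99.3 CPM, a ratio of 1.03 (0.961 to 1.10). Within clusters ISL1 (0.768) was called lower, while SHOX2 (0.912), TBX18 (1.09) and HCN4 (0.975) stayed between.

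TBX3, the repressor of chamber genes in the node, was at 180 against 198 CPM, a ratio of 0.908 (0.865 to 0.953). Yet a TBX3 UMI was in 60.3% of thinned NPPA-high and 46.6% of thinned NPPA-negative cells, 75.9% and 58.6% before thinning, beside 39.7% of thinned TNNT2-low cells. The share and the level pointed opposite ways, so no order is read from them. The per-cell values show the shapes: the median was 114 CPM in NPPA-high and 60.4 in NPPA-negative cells, while the 90th percentile was 467 and 682 CPM. Within clusters the ratio was 0.570, and TBX3 was then called lower.

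The called pacemaker genes were channels, signalling and calcium-binding genes. The T-type calcium channel CACNA1G was at 36.3 against 27.9 CPM (ratio 1.30), the calcium sensor VSNL1 at 300 against 236 CPM (1.27) and CPNE5 at 371 against 281 CPM (1.32). The acetylcholine-gated potassium channel KCNJ3 was lower at 43.2 against 62.5 CPM (0.691), as was the G protein regulator RGS6 at 31.1 against 48.9 CPM (0.637). The L-type calcium channel CACNA1D was between at 92.9 against 108 CPM, as was the nodal connexin GJC1 at 89.7 against 107 CPM. Within clusters CACNA1G (1.14), VSNL1 (1.18), CPNE5 (1.19) and KCNJ3 (0.973) were no longer called, while RGS6 (0.780) stayed lower. CACNA1D (0.686) was then called lower, and GJC1 (0.807) stayed between.

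Working genes were higher. Of 17 listed, 10 were measured, 7 were higher and none was lower, and their median log2 ratio was 0.63. NKX2-5, the factor that sets chamber identity and is kept out of the node's head, was at 60.02 CPM in NPPA-high and 23.1 CPM in NPPA-negative cells, a ratio of 2.60 (2.33 to 2.90). After thinning, 18% and 11.1% of cells held an NKX2-5 UMI (21.8% and 16.1% before), against 0.622% of TNNT2-low cells. The fast-conduction connexin GJA5 was at 36.5 against 23.4 CPM (1.56) and the atrial potassium channel KCNA5 at 22.5 against 16.0 CPM (1.40). The peptide gene ADM was at 131 against 85.6 CPM. In an alternative chosen after the data were seen, all cells that held an NKX2-5 UMI were left out of both sides. NKX2-5 itself then had no ratio, and the median of the list's other measured members was -0.016. GJA5 (0.756) and KCNA5 (0.822) were there on the other side of 1, while PAM (1.70), MYBPHL (1.75) and ADM (1.30) were still called higher. Within clusters GJA5 was at 3.26 and KCNA5 at 2.47.

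Among the transcription factors of working myocardium, 4 of 5 measured were higher, NKX2-5 among them, and 1 was lower. TBX5, an activator of NPPA, was at 180 against 133 CPM (1.35), TBX20 at 15.3 against 8.96 CPM (1.70) and the Notch target HEY1 at 16.5 against 8.12 CPM (2.03). TBX5 was at 1.16 within clusters and was then not called.

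**Figure D2:**
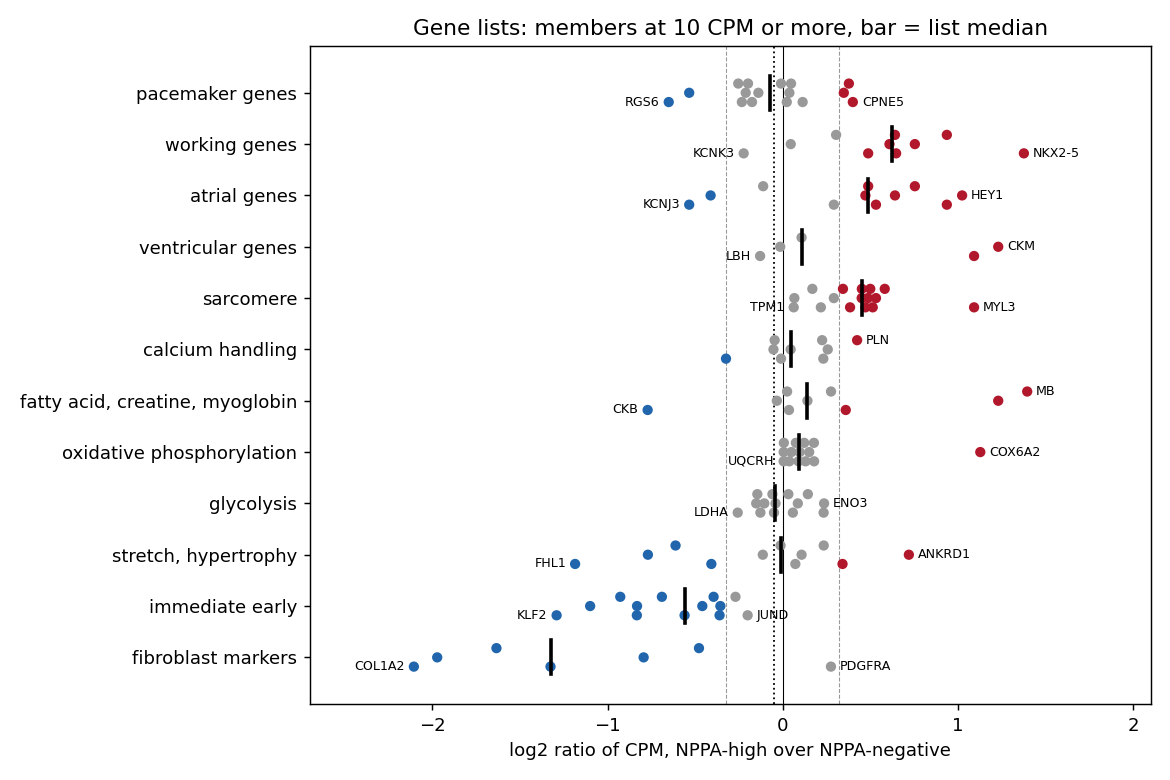
Log2 ratio of summed CPM, NPPA-high over NPPA-negative (horizontal axis), for the measured members of 12 gene lists. Points are genes (red higher, blue lower, grey between, as set by the dashed limits), short bars are list medians and the dotted line is the median of all measured genes at -0.05: the working genes centre at 0.63 and the pacemaker genes at -0.07.

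The sarcomere was higher as a group, with 11 of 16 measured genes higher, none lower and a median log2 ratio of 0.45. The atrial light chains MYL7 (16471 against 11387 CPM, ratio 1.45) and MYL4 (6225 against 4487 CPM, 1.39) were both higher. The giant spring protein TTN was at 9739 against 7121 CPM (1.37), the anchor ACTN2 at 404 against 283 CPM (1.43) and TCAP at 488 against 326 CPM (1.5). TNNT2, whose level the rule bounded from below, was at a ratio of 1.37. Within clusters MYL3 (1.12), MYL4 (1.21), TTN (1.13), ACTN2 (1.23) and TNNT2 (1.23) were no longer called higher. MYL7 (1.27) and TCAP (1.52) still were. ACTC1 (1.12), MYH6 (1.22), TPM1 (1.04), TNNI1 (1.16) and MYOM1 (1.05) were between. Of 9 measured calcium-handling genes, PLN, the brake on the calcium pump, was higher at 982 against 732 CPM, and 7 were between, RYR2 at 1.17 and ATP2A2 at 1.19 among them. PLN was at 1.21 within clusters and was then not called.

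Members of both the atrial and the ventricular list were among the genes called higher. Of 11 measured atrial genes, 7 were higher, and NR2F1 (168 against 224 CPM) and KCNJ3 were lower. The atrial factor NR2F2 was between, at 521 against 563 CPM. Of 9 listed ventricular genes only 5 were measured, and the rest were under the 10 CPM floor. Of the 5, MYL3 and CKM were higher, and FHL2, HSPB7 and LBH were between, so no ventricular character is read from them. SLN, the atrial inhibitor of the calcium pump, had 23 UMIs in NPPA-high and 485 in NPPA-negative cells, of which 5 cells held 288.

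Among the known regulators of NPPA, NKX2-5, TBX5 and TBX20 were the 3 of 10 measured activators called higher. GATA4 (99.8 against 92.7 CPM), GATA6 (309 against 364 CPM), MEF2C (163 against 174 CPM), the serum response factor SRF (42.1 against 41.5 CPM) and HAND2 (162 against 154 CPM) were between. On the repressor side, 3 of 6 were lower and 1, HEY1, was higher. TBX2, which represses NPPA in the non-chamber heart, was at 17.6 against 49.1 CPM, a ratio of 0.359 (0.312 to 0.412). A TBX2 UMI was in 13.6% and 26.6% of thinned cells, 22.1% and 40.5% before thinning, and in 6.95% of thinned TNNT2-low cells. MSX2 (0.634) and JARID2 (0.794) were also lower, but JARID2 kept this call in only 5 of the 13 alternatives and MSX2 in 12. TBX2 stayed between 0.263 and 0.449 over the 13 alternatives.

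The other natriuretic peptide gene beside NPPA was far higher, though under the 10 CPM floor. NPPB, which encodes the related B-type peptide, had 177 UMIs in NPPA-high and 12 in NPPA-negative cells, a ratio of 23.3 (13.0 to 45.9) on few molecules. These came from 45 and 11 cells, and 5 NPPA-high cells held 100 of the 177, a spread over cells that the interval does not cover. Of 5 measured neighbours 1 was higher, and CLCN6, PLOD1, KIAA2013 and MFN2 were between 0.938 and 1.08. CORIN, the protease that cuts the NPPA precursor, was under the floor, at 166 against 93 UMIs and a ratio of 2.82. The granule genes CPE (0.838), PCSK1N (0.952) and CADPS (1.17) were between, and PAM was the 1 of 5 that was higher.

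Stretch genes differed in both directions. ANKRD1, a stretch-responsive repeat protein of the sarcomere, was at 159 against 96.6 CPM (1.65) and XIRP1 at 1.27, while CCN1 (0.654), CCN2 (0.587), FHL1 (0.440) and RCAN1 (0.754) were lower and 5 of 11 were between. Immediate-early genes, which cells switch on within minutes of a stimulus or of dissociation, were lower in 11 of 13, with a median log2 ratio of -0.56. JUNB was at 124 against 235 CPM, KLF6 at 75.9 against 163 CPM and ATF3 at 29 against 51.7 CPM. FOSB (0.830) and JUND (0.870) were between. JUNB, KLF6 and ATF3 kept their call in all 13 alternatives, but NR4A1, also lower, kept it in only 7. Within clusters XIRP1 (1.07), CCN1 (0.854), CCN2 (0.891) and RCAN1 (0.842) were no longer called, while ANKRD1 (1.45) and FHL1 (0.629) were.

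Several genes, chosen after their values were seen, are given over the range of NPPA. Cells were grouped by 0, 1 to 3, 4 to 9, 10 to 19, 20 to 49 and 50 or more NPPA UMIs, holding 1372, 1361, 799, 386, 284 and 134 cells. NKX2-5 was at 23.1, 15.3, 18.1, 18.8, 55.1 and 192 CPM in that order, so it was low up to 19 UMIs and high only in the top groups. GJA5 ran 23.4, 16.3, 12.9, 20.7, 29.5 and 98.5 CPM, lowest in the middle. The shares of thinned cells with an NKX2-5 UMI were 11.1%, 7.57%, 7.38%, 7.25%, 18% and 49.3%.

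Other genes followed other shapes. CKM went from 650 CPM at 0 to 1402 at 4 to 9 UMIs and 1475 at 50 or more, while MB went from 234 to 403 and 1303 CPM, most of it in the last step. TBX2 ran 49.1, 36.1, 27.5, 21.8, 17.1 and 6.42 CPM, lower in each group than in the one before. SHOX2 was at 575 CPM at 0 UMIs, 521 at 10 to 19 and 392 at 50 or more, and BMP4 at 241, 228 and 124 CPM. MGP was at 228 CPM at 0, 18.9 at 10 to 19 and 54.0 at 50 or more UMIs.

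**Figure D3:**
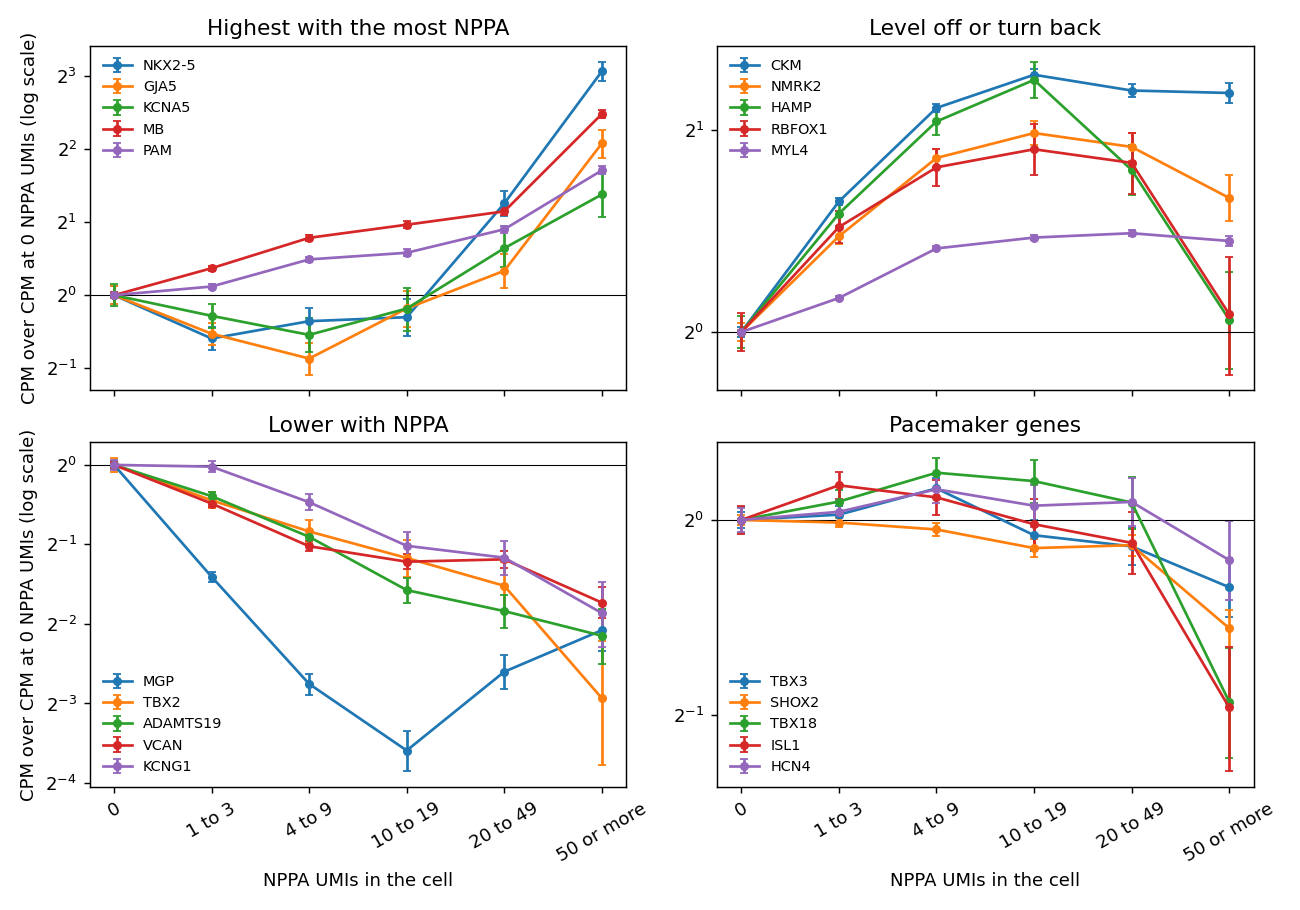
CPM of selected genes divided by their CPM at 0 NPPA UMIs (vertical axes, log scale), in cells grouped by NPPA UMIs (horizontal axis), with exact 95% counting intervals of each group's CPM. NKX2-5 goes from 18.8 CPM at 10 to 19 UMIs to 192 CPM at 50 or more, while TBX2 is lower in each group, down to 6.42 CPM.

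The NPPA-high cells thus held cells of unlike factor content. By UMIs after thinning, 436 of the 804 (54.2%) had TBX3 alone, 96 (11.9%) NKX2-5 alone, 49 (6.09%) both and 223 (27.7%) neither, where a missing UMI does not show that a gene is silent. Among NPPA-negative cells these were 565 (41.2%), 78 (5.69%), 74 (5.39%) and 655 (47.7%). Per cell class, summed NPPA was at 1588 CPM with NKX2-5 alone, 1016 with both, 439 with TBX3 alone and 302 with neither. The median cell held only 3, 1, 2 and 1 NPPA UMIs in that order. NPPA-negative cells were 28.7%, 39.6%, 26.2% and 38.1% of these classes. At 10 to 19 NPPA UMIs, 61.1% of cells had TBX3 alone and 3.89% NKX2-5 alone, and at 50 or more these were 35.1% and 32.8%.

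Among cells with TBX3 alone, CKM, SFRP5, HEY1 and sarcomere genes were higher, and immediate-early genes and fibroblast markers lower. There 3.17% of the 8730 genes were higher and 10.3% lower. Of the listed genes, 8 of 16 sarcomere genes were higher and none lower, 9 of 13 immediate-early genes were lower and none higher, and 6 of 7 fibroblast markers were lower. CKM was at 1560 against 779 CPM (ratio 2.0), SFRP5 at 103 against 37.0 CPM (2.77) and HEY1 at 15.9 against 6.46 CPM (2.45), while MB was at 1.32 and MYL3 at 1.14. HCN4 was at 109 against 115 CPM and TBX3 itself at 285 against 414 CPM. Of the working genes 5 of 10 were higher and none lower (median log2 ratio 0.29), and of the pacemaker genes 1 of 16 was higher and 4 lower (-0.09).

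Among cells with NKX2-5 alone, genes of oxygen storage, contraction and conduction were higher. With 96 and 78 cells, 17.3% of genes were higher and 24.7% lower. Fewer cells give fewer UMIs per gene, and counting noise alone then puts more genes past a fixed limit, so these shares are not compared between the classes. MB was at 1373 against 190 CPM, a ratio of 7.21 (6.33 to 8.24), MYL3 at 1156 against 210 CPM (5.50) and the muscle cytochrome oxidase subunit COX6A2 at 125 against 10.5 CPM (11.8). GJA5 was at 121 against 36.9 CPM (3.29) and KCNA5 at 64.6 against 30.1 CPM (2.15). CORIN was at 66.5 against 6.02 CPM, a ratio of 11.0 (5.40 to 26.2). Of the working genes 8 of 10 were higher (median log2 ratio 1.07), and of the pacemaker genes 3 of 16 were higher and 11 lower (-0.44). TBX18 was at 15.4 against 42.2 CPM and BMP4 at 38.2 against 137 CPM.

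In cells with neither factor, 7.06% of genes were higher and 15.3% lower. MYL3 was at 405 against 81.3 CPM (4.98), MB at 399 against 112 CPM (3.56), MGP at 34.7 against 359 CPM, and GJA5 at 27.8 against 32.8 CPM. All 13 immediate-early genes were lower there. Of the pacemaker genes 4 of 16 were higher and 2 lower (median log2 ratio 0.13), and of the working genes 5 of 10 were higher and 1 lower (0.32). In the 49 and 74 cells with both factors, where 16.6% of genes were higher and 29.7% lower, all 10 working genes were higher (median log2 ratio 0.83) and of the pacemaker genes 1 of 16 was higher and 10 lower (-0.43). There 7 of 13 immediate-early genes were higher and none lower. TBX3 and NKX2-5, which drew the classes, stay in the list counts and medians of every class, so their own calls there are no support. Among the pacemaker genes TBX3 counted as higher with NKX2-5 alone (2.31) and with neither (1.97), and as lower with both (0.496). Among the working genes NKX2-5 counted as higher with NKX2-5 alone (2.11), with both (1.76) and with neither (1.63). The difference between the classes was not tested.

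The CD34 antibody tag, which the rule did not use, was higher in NPPA-high cells. The median was 139.5 tag UMIs (quartiles 58.75 and 397) against 66 (41 and 173), a ratio of 2.11, and the quartile ranges overlapped. The 95% intervals of these medians, from the spread over cells of the 1 culture, were 121 to 160 and 63 to 71. Cells between the sides had a median of 101, and TNNT2-low cells 41. The tag did not track NPPA to the top: the medians over the 6 groups were 66, 83, 135, 161.5, 156.5 and 71.5. Among cells with TBX3 alone it was 227.5 in NPPA-high and 140 in NPPA-negative cells, and with neither factor 109 and 54. Among cells with NKX2-5 alone it was 51.5 and 49, and with both factors 56 and 71.5. The sides stood apart in the classes without an NKX2-5 UMI, and the ratio with all NKX2-5-positive cells left out was 2.71.

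**Figure D4:**
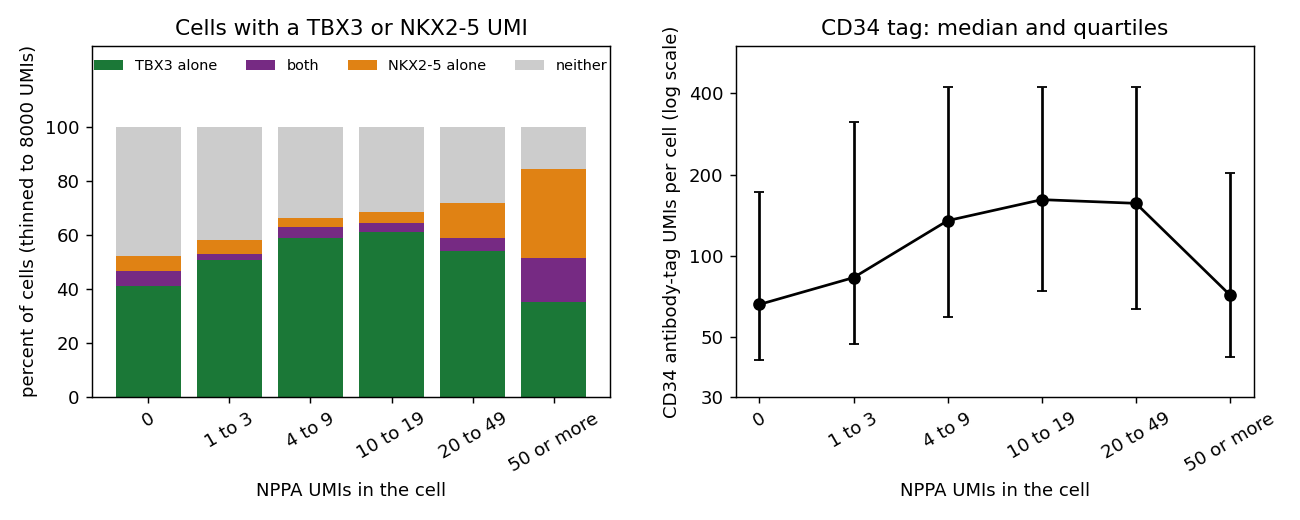
Percent of cells in each TBX3 and NKX2-5 class (stacked bars, thinned UMIs) and median CD34 tag UMIs (log axis, bars from the lower to the upper quartile) in cells grouped by NPPA UMIs. The tag median is 161.5 at 10 to 19 UMIs and 71.5 at 50 or more, where 32.8% of cells had NKX2-5 alone.

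Clusters drawn without NPPA placed the same cells. A cluster of 160 cells led by MB, MYL3 and LINC00881 had NPPA at 3170 CPM, with 55.0% of its cells NPPA-high and 19.4% NPPA-negative, NKX2-5 at 325 CPM, TBX3 at 204 CPM and a tag median of 46. It held 88 cells, 10.9% of the NPPA-high side. The largest share of that side, 225 cells (28.0%), was in a cluster of 893 led by TBX3, MYL3 and MT1E, where NPPA was at 544 CPM, NKX2-5 at 7.2 CPM and the tag median at 375. A cluster of 837 cells led by MGP, TMSB4X and GATM held 460 NPPA-negative cells, 33.5% of that side, and 8.0% of its cells were NPPA-high. TBX3 was at 44.8 CPM there, NKX2-5 at 36.9 CPM, GJA5 at 67.3 CPM and SHOX2 at 676 CPM. GJA5 was thus high both in the cluster richest in NPPA, at 79.4 CPM, and in the poorest, beside 8.27 CPM in the cluster led by KCNG1, MYLK and AARD.

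**Figure D5:**
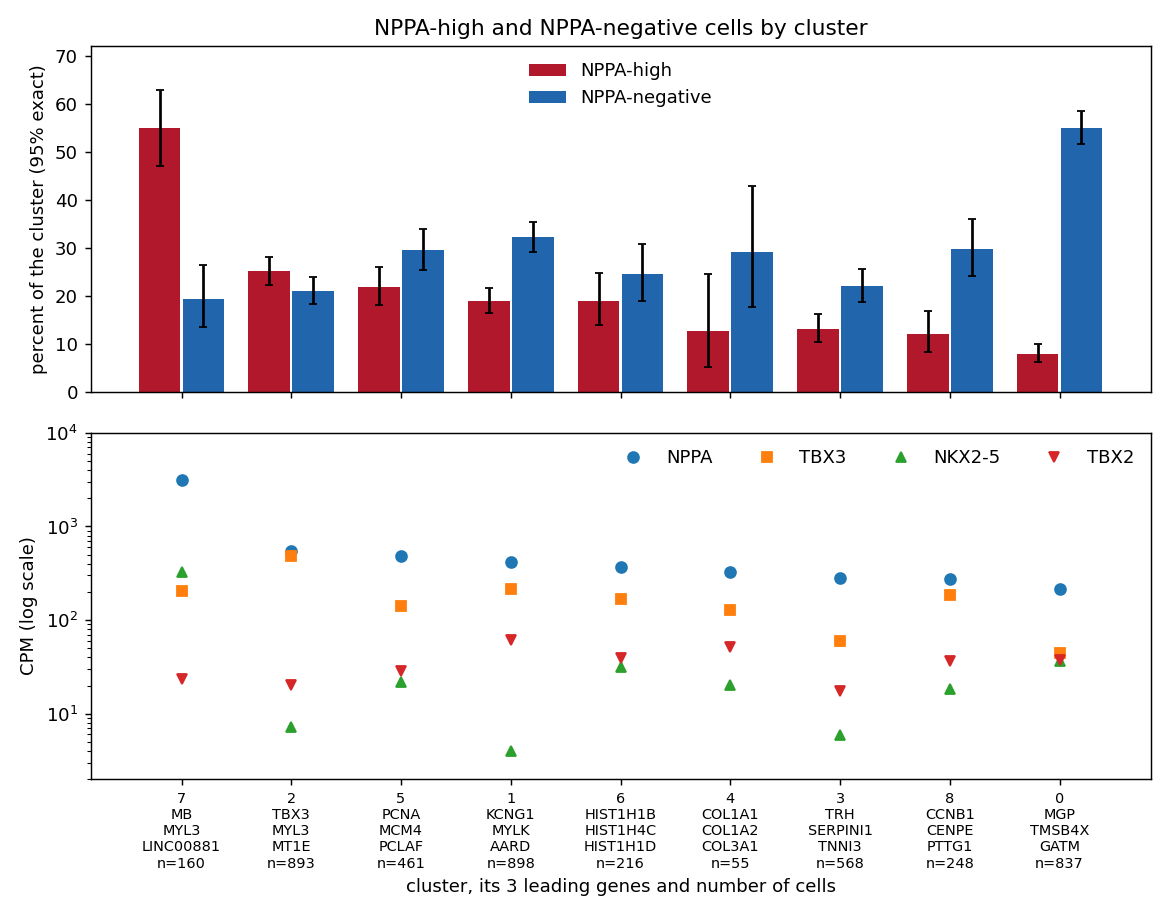
Percent of cells NPPA-high and NPPA-negative in each cluster (upper panel, exact 95% intervals) and summed CPM of NPPA, TBX3, NKX2-5 and TBX2 (lower panel, log axis). The cluster led by MB and MYL3 is 55.0% NPPA-high and the cluster led by MGP 8.0%.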

How the data were processed

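RNA and CD34 tag UMI counts were taken as deposited, made with Cell Ranger 6.1.2 on GRCh38 per the submitters' processing notes, from 1 culture and 2 libraries. Depth was 239181462 RNA and 2773855 tag UMIs over 14829 barcodes and 36601 genes. Members, gene lists and limits were chosen with earlier results of these data known. Counts were summed per side and divided by all RNA UMIs (CPM). CPM intervals were exact Poisson, ratio intervals exact conditional binomial, shares Clopper-Pearson, tag medians by order statistics over cells, all at 95%. Genes needed 10 CPM over all cardiomyocytes. Named genes were the 15 highest and 15 lowest ratios at 50 CPM or more, without NPPA, mitochondrial and ribosomal protein genes, plus list members. Genes named from rare counts, classes or clusters were chosen after their values were seen. Cells were thinned to 8000 UMIs for shares and classes. Clusters used scanpy 1.11.5 (Leiden, NPPA left out) and doublets Scrublet, which marked 11.6% of 12119 barcodes and were kept except in an alternative. Python 3.11.15, numpy 2.4.6 and scipy 1.17.1 were used, and the ratios were tested on simulated data. Some list members count in the lists but are not reported here by name.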

Additional observations from a re-analysis of the deposited data

How the results depend on the processing

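With 1 culture there was no replicate to leave out. No paired analysis was possible because the result comes from no test and the libraries carry no replicate numbers. The 266 higher and 782 lower genes became 89 and 187 at a 50 CPM floor, 3473 and 4974 with no floor, and 832 and 1183 at 10% mitochondrial UMIs or less, where 136 and 424 cells were left. The pacemaker median of -0.07 and working median of 0.63 were -0.18 and 0.84 with NPPA-high from 20 UMIs, 0.016 and 0.29 from 5 UMIs, -0.17 and 0.84 with sides drawn after thinning, -0.17 and 0.78 at 10% mitochondrial UMIs or less, and -0.0098 and 0.43 with no floor. Without NKX2-5-positive cells, chosen after seeing the data, they were 0.0036 and -0.016, the latter over working genes other than NKX2-5. The tag ratio of 2.11 was 1.64 after thinning, 1.58 within clusters and 2.71 without NKX2-5-positive cells. Reversed genes were GJA5 (0.756), KCNA5 (0.822) and XIRP1 (0.943) without those cells, NR4A1 (1.08), MT1X (0.869) and DHRS3 (1.05) within clusters, MT1X (0.839), DHRS3 (1.30) and RGS5 (1.11) at 10% mitochondrial UMIs or less, and RRM2 (0.815) after thinning. The cause was not tested. The share of called genes that were higher was 35.4% with TNNT2 from 4000 CPM and 41.3% at 10% mitochondrial UMIs or less, beside 25.4%. In all 13 alternatives 19 of 47 higher, 31 of 56 lower and 99 of 140 between genes kept their call.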

Other observations

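Most listed metabolic genes outside creatine and oxygen storage were between, with COX6A2 and FABP3 higher. Of 14 measured nuclear genes of oxidative phosphorylation, COX6A2 was higher at 36.9 against 16.9 CPM and 13 were between. It was at 1.22 without cells that held an NKX2-5 UMI. All 13 mitochondrially encoded genes (median log2 ratio 0.15) and all 14 measured glycolysis genes (-0.05) were between. In the fatty acid and creatine list FABP3 was higher (340 against 265 CPM) with CKM and MB, and the brain-type creatine kinase CKB was lower (236 against 403 CPM).

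Signalling lists were mixed. In the BMP list the ligand BMP2 was higher at 79.3 against 49.3 CPM (1.61), SMAD7 was higher at 1.28, and the targets ID1 (0.786) and ID3 (0.783) were lower, with 8 of 12 between. In the retinoic acid list ALDH1A1 was higher, and the binding protein CRABP2 (14.2 against 59.0 CPM), ALDH1A2, DHRS3 and NR2F1 were lower. Of 7 interferon-inducible genes, BST2 (27.6 against 62.4 CPM), IFITM3, IFI6 and ISG15 were lower and 3 between. RRM2 was higher and 7 of 8 proliferation genes were between. By class, 8 of 8 proliferation genes were higher with NKX2-5 alone, 7 with both factors and 1 with neither, and 4 were lower with TBX3 alone. Of the genes called here, ID1 kept its call in 5 of the 13 alternatives, ID3 and IFITM3 in 8 and RRM2 in 6. MT1X was the 1 of 5 metallothionein-list genes that was higher, at 149 against 108 CPM. The classes went opposite ways here. All 5 were higher with NKX2-5 alone (median log2 ratio 1.27) and with neither factor (1.29). With TBX3 alone 4 of 5 were lower (-0.36), and with both factors all 5 (-0.94). Of 7 hypoxia genes ADM alone was higher, and of 6 stress-response genes SESN2 was lower, with none higher. SST, which encodes somatostatin, had 1597 UMIs in NPPA-negative cells, of which 5 cells held 1517, and 32 in NPPA-high cells.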
